A study of Drosophila melanogaster with 12 samples.

Results

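Diptericins (DptA, DptB), attacins (AttA, AttB, AttC, AttD), cecropins (CecA1, CecA2, CecC) and drosocin (Dro) are small antibacterial peptides of Drosophila melanogaster. Their 10 genes were taken by FlyBase symbol from the 17807 gene IDs counted in RNA sequencing libraries of third-stage (L3) larvae. Salivary glands and wing imaginal discs, the larval precursors of the adult wing and thorax, were sequenced from Oregon R controls and from animals with the genotype given as egg_1473; Su(var)3-9_06, which the labels call double mutants of SetDB1 (egg) and Su(var)3-9. Both genes encode enzymes that methylate histone H3 at lysine 9, a mark of silent chromatin. There were 3 libraries in each of the 4 groups, each made from the pooled glands (25) or disc pairs (25) of larvae kept at 25 °C.

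The labels do not say whether the larvae carried a bacterial load, were fed antibiotics or shared a genetic background, and no group was deliberately infected as far as the labels state. They mention technical replicates and do not say that the libraries came from separate dissections, so p-values measure the spread between these libraries, which may be technical.

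Expression of these peptides in flies is the standard readout of the Imd pathway. Peptidoglycan of Gram-negative bacteria and some bacilli is bound by recognition proteins such as PGRP-LC, the adaptor Imd recruits Fadd and the caspase Dredd, and the NF-kappaB factor Relish (Rel) is cleaved and enters the nucleus. The fat body is the main source after systemic infection, and epithelia also make some of the peptides. Inhibitors such as pirk and the peptidoglycan-cleaving recognition proteins limit the response and are in part induced by it.

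Total gene counts were 17418224 to 57591665 per library, and 3 counts in a library, the floor used here, came to a normalised level of 0.0531 to 0.154 CPM, the count scaled to library size. The targeted genes did not behave alike, so the groups are called mutant-labelled. Su(var)3-9 was 2.48 ± 0.431 CPM in control glands and 81.0 ± 27.1 CPM in mutant-labelled glands (SD, n = 3), and it fell from 25.0 ± 0.601 to 3.98 ± 0.800 CPM in discs. The rise in glands is not what a loss of transcript would give, and whether it bears on the label was not tested. The count of egg was 7.80 ± 2.49 and 7.30 ± 0.476 CPM in glands and 136 ± 5.63 and 132 ± 6.48 CPM in discs, with no change past the threshold in either tissue. Counts over a whole gene cannot check an allele that leaves its transcript in place. Salivary gland markers summed to at least 298511 CPM in every gland library and to between 4188 and 6737 CPM in the disc libraries. Whether the disc counts of the peptide genes include RNA from glands was not tested. Wing disc markers summed to at most 86.8 CPM in every gland library and at least 2049 CPM in every disc library. CPM are scaled within each tissue unless stated.

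In salivary glands 4 of the 10 peptide genes were lower in the mutant-labelled libraries and none was higher at an adjusted p under 0.05. DptB, DptA, AttC and CecA1 fell by between 8.09-fold and 41.0-fold, whereas AttA, AttB, AttD, CecC, CecA2 and Dro did not pass the test. Of the 9441 gland genes that entered edgeR's quasi-likelihood test, with p-values adjusted by Benjamini-Hochberg over all of them, 5.91% were called lower, 7.26% higher and 13.2% in either direction. The median log2 change of the 10 genes was -1.14, beside -0.04 over all genes tested. Each gene is described below with its CPM in control libraries 1, 2 and 3 and then in mutant-labelled libraries 1, 2 and 3.

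**Figure D1:**
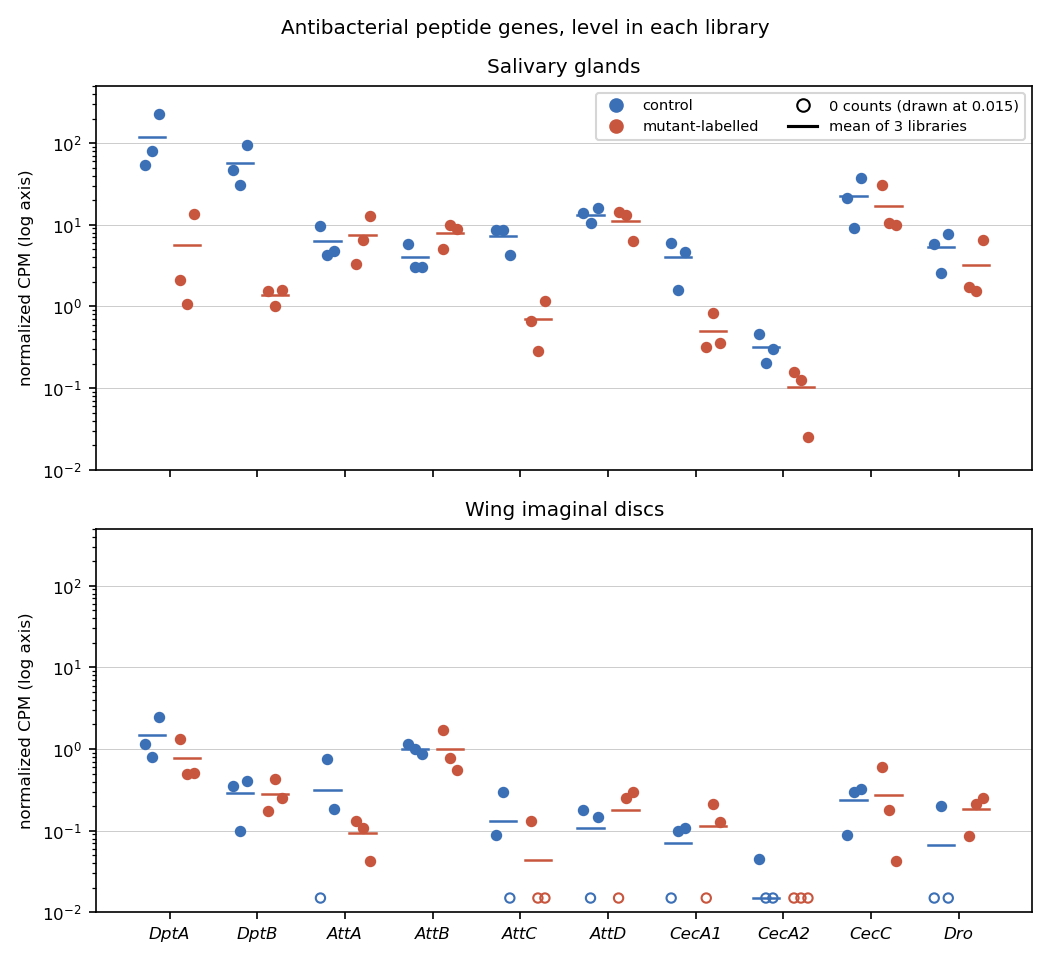
Normalised level (CPM, log axis) of the 10 peptide genes in each of the 12 libraries, with the mean of each group as a line and libraries without a count drawn at 0.015. The gland groups separate for DptA, DptB, AttC, CecA1 and CecA2 and overlap for AttA, AttB, AttD, CecC and Dro, and, with CPM scaled within each tissue, the disc values of each gene lie below its control gland values.

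DptB, a glycine-rich peptide of the diptericin family, had the largest fall of the 10. Its level was 46.3, 30.6 and 94.2 CPM in control glands and 1.56, 1.01 and 1.61 CPM in mutant-labelled glands. Every control library was far above every mutant-labelled library, and the mutant-labelled values lay close together. The log2 change was -5.36 ± 0.48 (SE, n = 3 against 3), a 41.0-fold lower mean, with an adjusted p of 0.000489.

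DptA, the other diptericin, is known in adult flies for its part in defence against Providencia rettgeri. It was 54.5, 80.2 and 225 CPM in control glands. In mutant-labelled glands it was 2.09, 1.06 and 13.6 CPM. The groups did not overlap, but each held 1 library well above its partners, control 3 and mutant-labelled 3. The log2 change was -4.44 ± 1.03, a 21.5-fold lower mean (adjusted p = 0.0266). The call was lost without control library 3 (log2 change -3.63, adjusted p = 0.07015), without mutant-labelled library 1 (adjusted p = 0.0758) and without mutant-labelled library 2 (adjusted p = 0.0626), and the change was -6.23 without mutant-labelled library 3. Over all alternatives its adjusted p ran from 0.000205 to 0.0758.

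The ratio of the diptericins per exon length, DptA over DptB, was 1.07, 2.37 and 2.16 in control glands. It was 1.21, 0.954 and 7.64 in mutant-labelled glands, so the high DptA of mutant-labelled library 3 had no counterpart in its DptB.

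Attacins are larger glycine-rich proteins that act on the outer membrane of Gram-negative bacteria. Among the 4 attacin genes only AttC changed past the threshold. AttC was 8.71, 8.73 and 4.27 CPM in control glands and 0.655, 0.288 and 1.17 CPM in mutant-labelled glands. The lowest control library was above the highest mutant-labelled library. Its log2 change was -3.37 ± 0.52, a 10.3-fold lower mean (adjusted p = 0.00539).

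AttA and AttB are neighbouring near-identical copies, and the labels do not say how reads that match both were counted, so the split between them is uncertain. AttA was 9.78, 4.26 and 4.84 CPM in control glands and 3.33, 6.50 and 12.7 CPM in mutant-labelled glands, with a log2 change of 0.26 ± 0.50 (adjusted p = 0.796). AttB was 5.86, 3.03 and 3.08 CPM in control glands and 5.01, 9.86 and 8.83 CPM in mutant-labelled glands, with a log2 change of 0.99 ± 0.35 (adjusted p = 0.113). The groups overlapped for both genes, and AttA turned to -0.34 without mutant-labelled library 3. Summed over the pair, the level was 15.6, 7.29 and 7.92 CPM in control glands and 8.33, 16.4 and 21.5 CPM in mutant-labelled glands, which also overlapped. AttB passed the threshold as higher when all 12 libraries were fitted together (adjusted p = 0.0436).

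AttD encodes an attacin without the signal peptide that the other attacins carry. It was 13.8, 10.4 and 15.9 CPM in control glands and 14.2, 13.1 and 6.41 CPM in mutant-labelled glands. Only mutant-labelled library 3 lay outside the control range. The log2 change was -0.25 ± 0.31 (adjusted p = 0.667), or 0.045 without mutant-labelled library 3.

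Cecropins are short helical peptides that permeabilise bacterial membranes. CecA1 was 5.96, 1.59 and 4.61 CPM in control glands and 0.319, 0.828 and 0.357 CPM in mutant-labelled glands, without overlap. The log2 change was -3.001 ± 0.57, an 8.09-fold lower mean (adjusted p = 0.0122). The call was lost without control library 1, at an adjusted p of 0.0506, and its adjusted p ran from 2.10e-06 to 0.0506 over all alternatives.

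CecA2, whose mature peptide is the same as that of CecA1, was barely expressed. It had 9, 4 and 16 counts in control glands (0.459, 0.205 and 0.302 CPM) and 9, 7 and 1 counts in mutant-labelled glands (0.159, 0.126 and 0.0255 CPM). The CPM did not overlap, which made 5 of the 10 genes with separate groups, beside 32% of all genes tested in glands, but the log2 change of -1.53 ± 0.67 did not pass the test (adjusted p = 0.184). Reads shared between CecA1 and CecA2 may have been split or dropped, and the summed level of the pair was 6.42, 1.80 and 4.91 CPM in control glands against 0.478, 0.954 and 0.383 CPM in mutant-labelled glands.

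CecC was the most abundant cecropin gene in both gland groups. It was 21.1, 9.24 and 36.9 CPM in control glands and 30.7, 10.4 and 10.1 CPM in mutant-labelled glands. The libraries of each group spanned nearly the same range, and the log2 change was -0.40 ± 0.57 (adjusted p = 0.708), or 0.16 without control library 3.

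Dro, which encodes the short proline-rich peptide drosocin, was 5.76, 2.57 and 7.66 CPM in control glands and 1.75, 1.53 and 6.46 CPM in mutant-labelled glands. Mutant-labelled library 3 lay within the control range and the other two lay below it. The log2 change was -0.74 ± 0.61 (adjusted p = 0.494), or -1.70 without mutant-labelled library 3, which did not pass either.

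**Figure D2:**
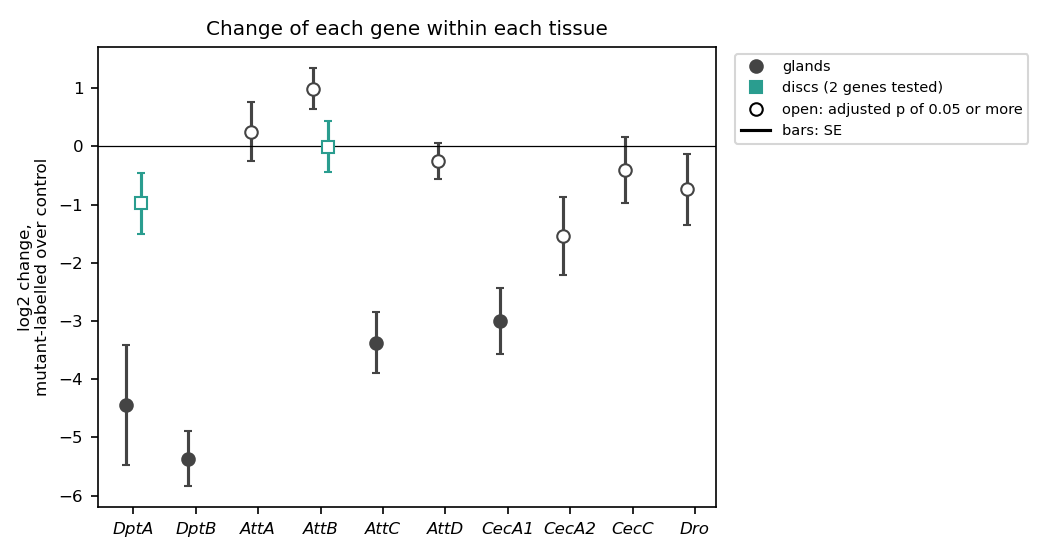
Log2 change (mutant-labelled over control) of each peptide gene in glands and, where tested, in discs, with bars of 1 SE and open points for an adjusted p of at least 0.05. DptB, DptA, AttC and CecA1 have filled points from -5.36 to -3.001 in glands, and every other point is open.

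Summed over the 10 genes, the level was 172, 151 and 396 CPM in control glands and 59.8, 44.7 and 61.2 CPM in mutant-labelled glands. The groups did not overlap, and the exact two-sided permutation test gave p = 0.1, which is the smallest value that 3 against 3 libraries allow. The diptericins made most of the difference in the sum, with a mean of 177 CPM in control and 6.97 CPM in mutant-labelled glands. The summed attacins were 30.9 ± 6.37 and 27.4 ± 3.60 CPM (SD, n = 3).

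Expressed as shares of this sum, the families were divided differently in the gland groups. Diptericins made up 70.8 ± 11.2% of the summed CPM in control glands and 11.9 ± 11.3% in mutant-labelled glands (SD, n = 3). The attacin share was 15.6 ± 7.72% in control and 51.0 ± 14.2% in mutant-labelled glands. The cecropin share was 11.3 ± 4.38% in control and 31.5 ± 18.3% in mutant-labelled glands, most of it CecC in both. Drosocin was 2.33 ± 0.890% in control and 5.64 ± 4.27% in mutant-labelled glands. Shares of a sum are tied to each other, and no test was made on them.

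**Figure D3:**
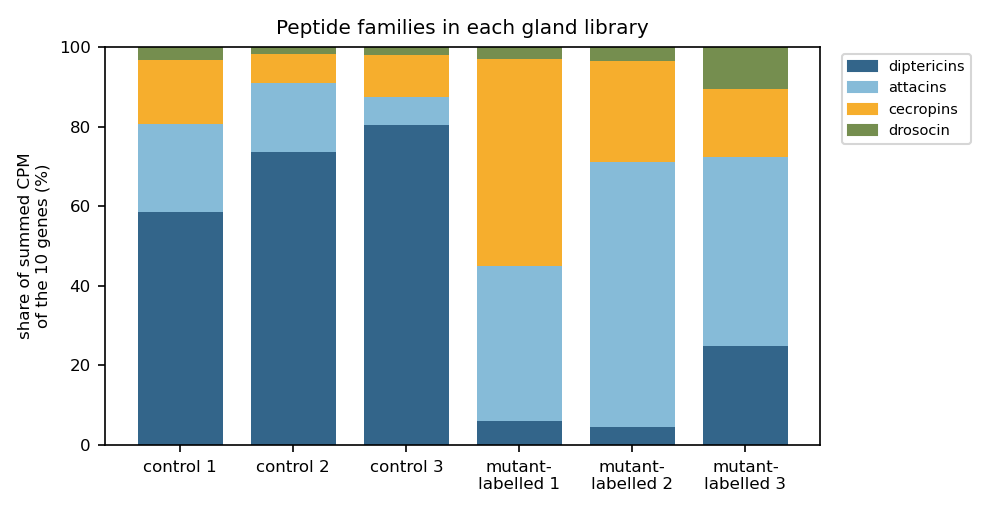
Share of the summed CPM of the 10 peptide genes taken by diptericins, attacins, cecropins and drosocin (%, stacked from 0) in each gland library. Diptericins take 58.5% to 80.4% in the 3 control libraries and 4.63% to 24.8% in the 3 mutant-labelled libraries.

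Levels of different genes were compared per kilobase of exon (RPKM). In control glands the order was DptA at 241, DptB at 127, CecC at 58.1, AttD at 18.0, CecA1 at 11.96, AttC at 8.04, AttA at 7.97, Dro at 7.06, AttB at 4.54 and CecA2 at 0.907 mean RPKM. Neighbours in that order overlapped between libraries except CecC with AttD and AttB with CecA2. In mutant-labelled glands CecC was first at 44.1 mean RPKM and AttD second at 15.2, followed by DptA at 11.2, AttA at 9.50, AttB at 8.99, Dro at 4.31, DptB at 3.10, CecA1 at 1.48, AttC at 0.784 and CecA2 at 0.292, and only CecC and AttD did not overlap.

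The change of order can be followed in a ratio within each library. DptB was 15.5, 19.8 and 59.9 times AttB per exon length in the control gland libraries. It was 0.609, 0.200 and 0.356 times AttB in the mutant-labelled gland libraries, so the more abundant of this pair differed between the groups in every library.

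Most of the genes lie in clusters. Positions are those of the BDGP6 annotation (Ensembl release 115), all on the plus strand. DptA (chr2R:18865765-18866260) and DptB (chr2R:18867391-18867895) lie 1130 bases apart, and both fell. Dro (chr2R:14745961-14746714), AttA (chr2R:14747362-14748215) and AttB (chr2R:14749223-14750165) follow each other with gaps of 647 and 1007 bases, and none of them passed the test. AttC (chr2R:13393705-13394667) lies on the same arm away from that block and fell, and AttD (chr3R:17625268-17626086) stands alone on 3R. CecA1 (chr3R:30210874-30211273), CecA2 (chr3R:30212156-30212568) and CecC (chr3R:30216484-30216938) share a cluster in which CecA1 fell and CecC, 2686 bases past the intervening CecB, did not pass the test. DptA and Dro have 1 annotated exon, and the other 8 genes have 2.

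CecB, a further cecropin gene of that cluster on the opposite strand (chr3R:30213315-30213797), had 22, 10 and 28 counts in control glands. It had 0, 0 and 3 counts in mutant-labelled glands and fell past the threshold (adjusted p = 0.0146), but not without control library 1 (adjusted p = 0.0593), mutant-labelled library 1 (adjusted p = 0.0526) or mutant-labelled library 2 (adjusted p = 0.0618). The levels of CecA1 and CecB were thus separate between the groups and those of CecC were not.

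Several genes that flank the clusters were expressed well enough in glands for a test. CG43071, 547 bases before DptA on the opposite strand, had a log2 change of -0.10 ± 0.33 (adjusted p = 0.882). Rpn6, a proteasome subunit gene on the opposite strand whose annotated end meets that of AttB, had a log2 change of -0.02 ± 0.21 (adjusted p = 0.969). RpS7, a ribosomal protein gene 1854 bases before CecA1, had a log2 change of 0.11 ± 0.15 (adjusted p = 0.699). These 3 neighbours did not pass the test, and the sign for CG43071 and Rpn6 turned under some alternatives. CG14323, 3156 bases before AttD, had 35 counts in control and 7 in mutant-labelled glands and did not pass either (adjusted p = 0.103).

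CG43109 lies antisense to DptB and overlaps 10.7% of its exon bases. It fell from 2.43 ± 0.950 to 0.162 ± 0.0787 CPM (log2 change -3.88 ± 0.50, adjusted p = 0.0024). The labels do not say whether counting used strand, and reads of CG43109 and DptB cannot be told apart where they overlap. The antisense gene CG4744 overlaps 5.89% of the exon bases of AttC, and its level was 0.245 CPM in control glands, far below the 7.24 CPM of AttC.

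**Figure D4:**
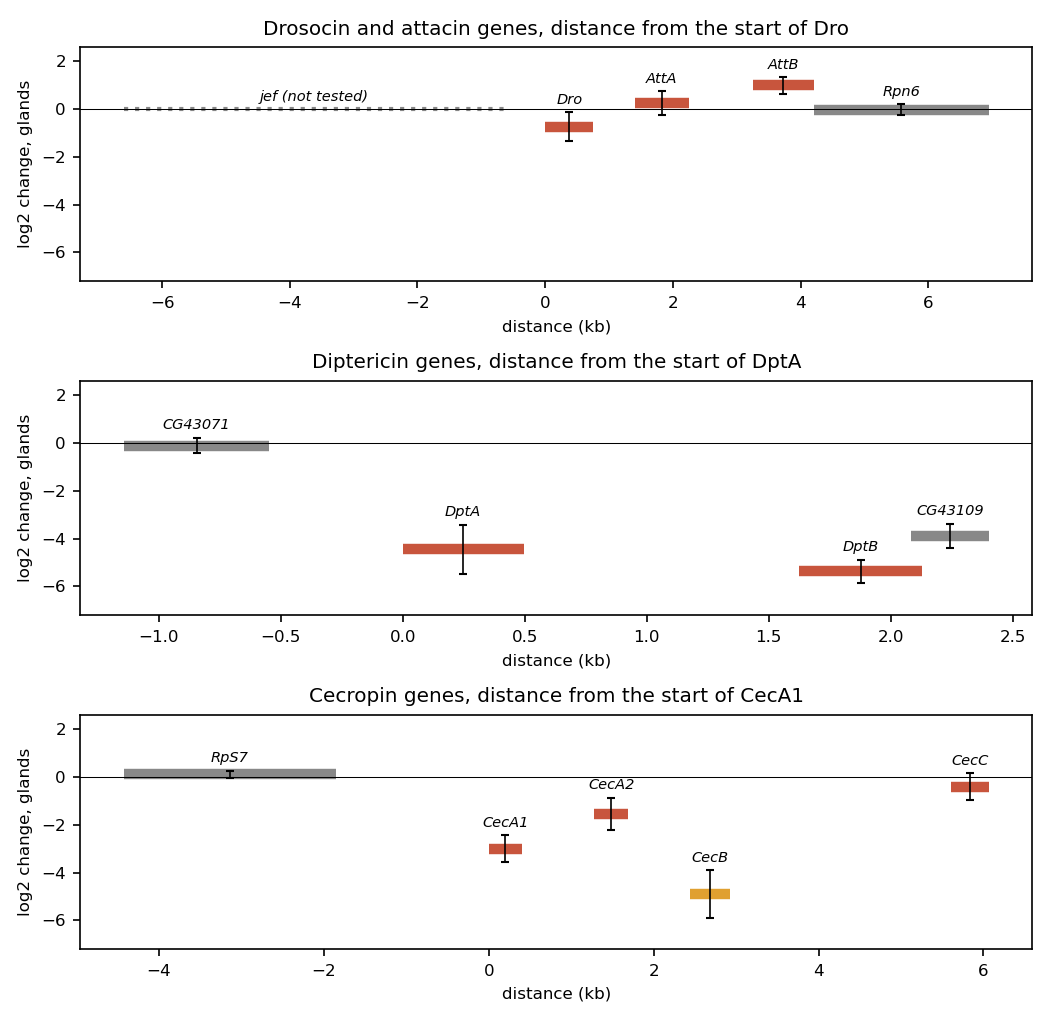
Log2 change in glands (mutant-labelled over control) of the peptide genes (red), the flanking genes (grey) and CecB (orange) against distance along each cluster in kb, with thick bars for the extent of each gene, thin bars of 1 SE and a dotted line for jef, which was not tested. DptA and DptB lie together near -4.44 and -5.36, while Dro, AttA and AttB lie between -0.74 and 0.99.

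In wing discs most of the peptide genes were close to the floor of 3 counts, and DptA and AttB, at 12 to 68 and 13 to 39 counts per library, were the highest. Of 60 disc values, 15 were 0 and 44 were at most 10 counts. Only DptA and AttB had enough counts to be tested, and neither passed the threshold, against 31.3% of the 9379 genes tested in discs. The disc groups overlapped for every peptide gene. The share of all disc genes with separate groups was not computed, and counts this low can hardly separate groups.

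DptA had 26, 16 and 68 counts in control discs (1.16, 0.801 and 2.48 CPM) and 30, 14 and 12 counts in mutant-labelled discs (1.31, 0.499 and 0.507 CPM). Control library 3 was the highest, and the groups overlapped. The log2 change was -0.98 ± 0.52 (adjusted p = 0.181), or -0.36 without control library 3 and -1.56 without mutant-labelled library 1, neither of them past the threshold. AttB had 26, 20 and 24 counts in control discs and 39, 22 and 13 counts in mutant-labelled discs, with a log2 change of -0.01 ± 0.44 (adjusted p = 0.993).

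The other 8 genes were too low in discs for a test. DptB had 8, 2 and 11 counts in control discs and 4, 12 and 6 counts in mutant-labelled discs. AttA had 0, 15 and 5 counts in control discs against 3, 3 and 1, and CecC had 2, 6 and 9 against 14, 5 and 1. The groups overlapped for all 3. AttC had 8 counts in control discs in all against 3 in mutant-labelled discs, AttD 8 against 14, CecA1 5 against 9 and Dro 4 against 14. The lowest was CecA2, with 1 count in all 6 disc libraries together. The level summed over the 10 genes was 3.08, 3.55 and 4.52 CPM in control discs and 4.15, 2.67 and 2.07 CPM in mutant-labelled discs (exact two-sided permutation p = 0.4, smallest possible 0.1). A change in discs was not detectable at this depth for most of these genes.

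The change of DptB was called different between the tissues, mainly through its change in glands. In the fit of all 12 libraries, its log2 change in discs minus that in glands was 5.27 ± 0.92 (edgeR's quasi-likelihood test, adjusted p = 0.00309). It was the only one of the 9 peptide genes tested to pass, where 4.47% of the 10185 genes tested were higher in this difference and 10.1% were called either way. The disc side of it rests on 21 counts in controls and 22 in mutant-labelled libraries. DptB was too low for a test in discs alone and passed the filter of this fit through its gland counts. It was 4.66 without control gland library 3, still past the threshold.

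For DptA the difference was 3.43 ± 1.36 (adjusted p = 0.148) and for CecA1 3.58 ± 1.34 (adjusted p = 0.119). DptA passed without mutant-labelled gland library 3 (adjusted p = 0.00755), and CecA1 passed with DESeq2 (adjusted p = 0.0175). The fall of AttC in glands had no tested counterpart in discs, and its difference of 1.90 ± 1.81 did not pass (adjusted p = 0.631). For these 3 genes a change particular to glands was not shown. The other 5 genes tested, AttA, AttB, AttD, CecC and Dro, had differences from -1.92 for AttA to 2.27 for Dro, with adjusted p of at least 0.281. Both ends rest on few disc counts: without control disc library 2 they were -0.38 for AttA and 5.62 for Dro, neither past the threshold.

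Between tissues, the peptide genes were lower in discs than in glands. In controls, 9 of the 9 genes tested were called lower in discs, where 38.7% of all genes were, and all 10 had separate groups, beside 81.8% of all genes tested, with levels scaled over all 12 libraries. Apart from DptA and AttB, the genes tested were too low in discs for a test there and passed the low-count filter through their gland counts. A gene kept in this way could hardly be called higher in discs, and the 38.7% also covers genes kept through discs. The log2 difference, discs minus glands, ran from -3.33 ± 0.42 for AttB (adjusted p = 9.05e-06) to -8.94 ± 0.55 for DptB (adjusted p = 1.16e-08; -8.33 without control gland library 3). On the scale shared by all 12 libraries, AttB was 6.24 ± 2.21 CPM in control glands and 0.617 ± 0.0847 CPM in control discs (SD, n = 3), the smallest log2 difference of the 9.

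In the mutant-labelled groups the same 9 genes were called lower in discs, where 39.9% of all genes were, with the same limit from the low-count filter. The differences ran from -3.49 ± 0.82 for CecA1 (adjusted p = 0.00139) to -7.66 ± 0.85 for AttA (adjusted p = 2.53e-06). The value for CecA1 was -2.88 without mutant-labelled gland library 2 and -4.27 without mutant-labelled disc library 2. All 10 genes had separate groups on that scale, beside 84.1% of all genes tested. Gland libraries had an additional round of oligo-dT enrichment, so tissue and preparation cannot be told apart in these comparisons. The part of gland RNA in the disc levels was not tested.

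Markers of other cell types moved with some of these differences. In bulk tissue, fewer cells of a type and less RNA per cell cannot be told apart. Fat body markers rose in 6 of 11 genes in mutant-labelled glands and fell in none, where 7.26% of all genes tested were called higher. Their summed level was 12703 to 19345 CPM in control glands and 25713 to 34227 CPM in mutant-labelled glands. The calls of Lsp2, apolpp and Tsf1 among them were lost when single libraries were left out (adjusted p up to 0.125), and none of the 11 markers was at 0. The peptide genes that fell thus did so in libraries where the summed fat body markers were higher, and the part of those markers in the result was not tested. In discs the fat body sum was 320 to 522 CPM in controls and 392 to 816 CPM in mutant-labelled libraries.

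Hemocyte markers in glands summed to 117 to 157 CPM in controls and 110 to 157 CPM in mutant-labelled libraries. None of the 12 passed the threshold in glands, beside 13.2% of all genes tested. In discs 6 of 12 hemocyte markers fell, among them Hml and NimC1, and none rose, where 31.3% of all tested genes were called. Only Col4a1 and vkg had positive log2 changes in discs (0.38 and 0.48), neither past the threshold. The summed disc ranges of the 12 markers, 193 to 277 CPM in controls and 163 to 343 CPM in mutant-labelled libraries, overlapped. Gut markers in glands summed to 0.713 to 1.49 CPM in controls and 0.142 to 0.485 CPM in mutant-labelled libraries, with 1 of 11 at 0 in all 6. That drop came from Vha100-4 alone, since the other 10 markers summed to a mean of 0.203 CPM in control and 0.252 CPM in mutant-labelled glands. Tracheal markers in glands summed to 169 to 212 CPM in controls and 119 to 129 CPM in mutant-labelled libraries. Of these markers 3 of 9 were lower (emp, dysf and uif), where 5.91% of all genes tested were. For uif the threshold was missed when control library 1 or 3 or mutant-labelled library 1 or 2 was left out (adjusted p up to 0.167). Without emp the other 8 tracheal markers summed to 86.7 to 120.3 CPM in control and 95.9 to 107 CPM in mutant-labelled glands. The part of Vha100-4, emp and the other markers in the fall of DptB, DptA, AttC and CecA1 was not tested.

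The pathway above the peptide genes was followed by role. Among 4 receptor genes of the Imd branch, 1 fell and none rose in glands, where 5.91% of all genes tested were called lower. PGRP-SD, a secreted recognition protein that helps bacterial peptidoglycan reach the receptor, had a log2 change of -1.61 ± 0.30 (adjusted p = 0.0109), which was not past the threshold without mutant-labelled library 2 (adjusted p = 0.0530). PGRP-LC, the main membrane receptor, had a log2 change of 0.64 ± 0.33 in glands (adjusted p = 0.268). PGRP-LA, a receptor-like protein, had one of 0.57 ± 0.16 and narrowly missed the threshold (adjusted p = 0.0505). It passed as higher with upper-quartile factors (adjusted p = 0.0481) and with the 20 most abundant genes removed (adjusted p = 0.0409). The same held with DESeq2 (adjusted p = 0.0173) and with all 12 libraries fitted together (adjusted p = 0.00122).

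Among 14 signalling genes, 1 rose and none fell in glands, a share near the 7.26% of all genes tested that were called higher. The gene that rose was Fadd, the adaptor between Imd and Dredd, with a log2 change of 1.15 ± 0.22 (adjusted p = 0.0129, or 0.0517 without control library 3). The transcript of Rel, the transcription factor that acts on the peptide genes, had a log2 change of -0.01 ± 0.31 (adjusted p = 0.994), and imd one of -0.12 ± 0.19 (adjusted p = 0.733). The sign for Rel turned in 10 of 14 alternatives. Transcript levels do not measure cleavage of the Relish protein.

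Of 13 inhibitor genes tested in glands, 4 fell and none rose, where 5.91% of all genes tested were called lower. The recognition proteins PGRP-SC1a and PGRP-SC1b, which cleave peptidoglycan, had 68 and 64 counts in control glands and 3 and 7 counts in mutant-labelled glands (adjusted p = 0.00959 and 0.00357 in the order given). They are near-identical copies, so the split between them is uncertain. PGRP-SB1, another peptidoglycan amidase, had a log2 change of -1.90 ± 0.46 (adjusted p = 0.0306), and PGRP-LF, a membrane protein that blocks PGRP-LC, one of -0.89 ± 0.24 (adjusted p = 0.0473). The call of PGRP-SB1 was lost without control library 1 or 3 or any mutant-labelled library (adjusted p up to 0.109), and that of PGRP-LF without any library other than control 2 (adjusted p up to 0.159) and in 5 further alternatives (adjusted p 0.0501 to 0.063). The inhibitor pirk had a log2 change of -1.13 ± 0.52 and did not pass (adjusted p = 0.213).

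**Figure D5:**
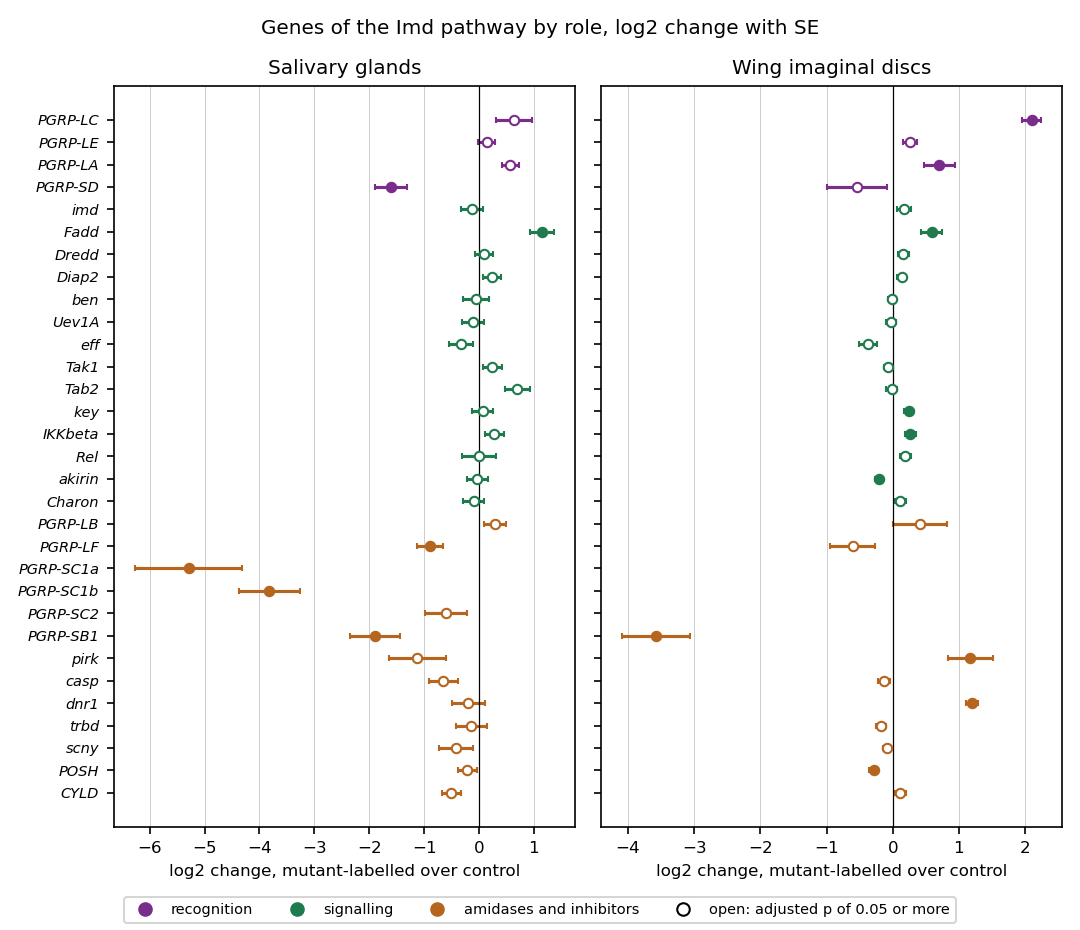
Log2 change (mutant-labelled over control, bars of 1 SE) of Imd pathway genes grouped as receptors, signalling components and inhibitors, in glands and in discs. In glands PGRP-SD and 4 inhibitors are past the threshold on the lower side and Fadd on the higher side, and in discs PGRP-LC and dnr1 stand out on the higher side.

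In discs, where most peptide genes were near the floor and 31.3% of all tested genes were called, 2 of 4 receptor genes rose and none fell. PGRP-LC went from 5.36 ± 0.757 to 23.1 ± 2.76 CPM, a log2 change of 2.10 ± 0.14 (adjusted p = 2.57e-06). Its change in discs was larger than in glands by 1.38 ± 0.36 on the log2 scale (adjusted p = 0.0302, between 0.000407 and 0.0928 over the alternatives). PGRP-LA, a receptor-like protein of the same genomic cluster, had a log2 change of 0.70 ± 0.24 (adjusted p = 0.0466), a call lost when any disc library was left out (adjusted p up to 0.119). Its change in discs minus that in glands was 0.06 ± 0.18 and did not pass (adjusted p = 0.903).

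Of 14 signalling genes in discs, 3 rose and 1 fell, a share near that of all tested disc genes (31.3%). Fadd was among those that rose, by a log2 change of 0.59 ± 0.15 (adjusted p = 0.0158), though not without control library 2 (adjusted p = 0.0668) or 3 (adjusted p = 0.0566) or mutant-labelled library 2 (adjusted p = 0.0545). Among 10 inhibitor genes tested, 2 rose and 2 fell, beside the same 31.3%. The gene dnr1, which encodes a ubiquitin ligase that restrains Dredd, had a log2 change of 1.19 ± 0.09 (adjusted p = 6.60e-06), and pirk one of 1.18 ± 0.34 (adjusted p = 0.0248), the latter lost without any disc library other than mutant-labelled 2 (adjusted p up to 0.0784). PGRP-SB1 fell in discs as well, by 3.58 ± 0.51 on the log2 scale (adjusted p = 0.000502).

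Other peptide genes of the immune response were counted in the same glands. Of 21 other antimicrobial or immune peptide genes tested, 15 rose and 2 fell, with a median log2 change of 4.77. Over all genes tested in glands, 7.26% were called higher and 5.91% lower. The genes that rose were mostly bomanins, a family of the Toll branch, while Def and Mtk did not pass. BomS1, a bomanin of the Toll branch, rose by a log2 change of 5.89 ± 0.44 (adjusted p = 0.000189), or 6.51 without control library 2. CecB and Drsl5, of the drosomycin family, were the 2 that fell. Drs, the drosomycin gene itself, rose from 7.75 ± 4.60 to 213 ± 51.9 CPM (log2 change 4.77 ± 0.47, adjusted p = 0.000724). Drsl6 of that family was also called higher, with 53 counts against 0 in controls, and Drsl1 did not pass. In discs 1 of 6 tested rose, where 31.3% of all tested genes were called.

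Genes whose profile over the 12 libraries lay nearest to each peptide gene were found by the root-mean-square distance of centred log2 CPM. For DptB these were asRNA:CR43936 at a distance of 0.482, RYa-R at 0.564 and sbm at 0.713. For DptA they were lncRNA:CR46100 at 0.929, DptB at 0.957 and tRNA:Leu-AAG-1-1 at 0.982. DptA was the only 1 of 9 peptide genes compared that had another of them among its 3 nearest genes. The nearest gene to CecA1 was CG43109, at 0.627, the antisense neighbour of DptB, and the nearest to AttD was asRNA:CR45136, at 0.407. These distances are descriptions over 12 libraries that share the tissue difference.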

How the data were processed

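Polyadenylated RNA of 12 libraries was sequenced as paired reads of 150 bases from 1000 ng of RNA, per the labels' protocols. The authors deposited whole-number counts per FlyBase gene, and the submitters' processing notes name cutadapt, HISAT2, featureCounts and the builds BDGP6 and dm6. Versions, strand setting and treatment of shared reads are not given in the sources used here. Of counts from 1 to 10, 70.4% to 74.7% were even in each library, so mates may have been counted singly. The deposited tables of transposable elements were not used.

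Symbols and exon lengths came from the BDGP6 annotation, which held 17710 of 17807 IDs. Genes were kept by filterByExpr (minimum count 10), scaled by TMM factors within a tissue and tested with edgeR 4.0.16 (R 4.3.3, quasi-likelihood F test, Benjamini-Hochberg adjustment, threshold 0.05). Tissue differences and the difference of changes came from 1 fit of all 12 libraries. SE was worked back from the F value. CPM are counts over the scaled library total, RPKM are CPM per kilobase of exon, and profiles used a prior count of 2. The floor is 3 counts and covers counting error only. Between libraries of a group, the biological coefficient of variation came to 0.292 (glands) and 0.102 (discs), and libraries of a group differed by more than sampling noise (chi-square per gene at least 4.40). The tests were tried on simulated data with the same spread for every gene of a tissue. The outcome is not given here, and such data do not check genes that vary as much between libraries as DptA.

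The genes and lists were chosen with earlier results of these data known. The text names the 10 peptide genes, the targeted genes, flanking protein-coding genes, up to 6 members per list and tissue with the lowest adjusted p past the threshold, and the 3 nearest profiles. In glands Rel, imd, PGRP-LC, PGRP-LA, pirk, CecB, Drs, Drsl1, Drsl5, Drsl6, Mtk and Def fall outside that rule and were named after their values were seen. The same holds for Col4a1 and vkg in discs. Alternatives were other scalings, filters and tools (DESeq2 1.42.0, limma-voom 3.58.1), a replicate block, and each library left out. Promoter and protein sequences were not analysed here.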

Additional observations from a re-analysis of the deposited data

Results flagged for a closer look

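The change of DptB differed between the tissues by 5.27 ± 0.92 on the log2 scale (discs minus glands, edgeR's quasi-likelihood test, adjusted p = 0.00309). In glands every mutant-labelled library was below every control library, and in discs the groups overlapped at 2 to 12 counts per library. DptB was too low in discs for a test there and entered this fit through its gland counts, so the difference rests mainly on the gland change.

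A receptor gene and an inhibitor gene of the Imd pathway also changed differently in the tissues. PGRP-LC had a difference of 1.38 ± 0.36 (adjusted p = 0.0302), which missed the threshold with limma-voom (adjusted p = 0.0883) and when 10 of the 12 libraries were left out, each in turn. The difference for dnr1 was 1.31 ± 0.33 (adjusted p = 0.0233), which missed it without mutant-labelled gland library 1 (0.0514), control disc library 2 (0.0513) or control disc library 3 (0.0566).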

How the results depend on the processing

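DptB and AttC were called lower in glands under all 14 alternatives run there. DptA lost the call without 3 of the libraries and CecA1 without 1, as given above, so that 3 or 4 of the 10 peptide genes were lower when a library was left out. With all 12 libraries fitted together, AttB was the 1 peptide gene called higher in glands. The lower level of the 9 tested peptide genes in discs than in glands was called under every alternative run, and the DptB difference between tissues as well. Apart from DptA and AttB, these genes passed the low-count filter through their gland counts.

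The number of genes called in glands, 1243, was 2360 with all 12 libraries fitted together and 705 to 1512 when a library was left out. It was 710 without control library 1, 726 without control library 3, 798 without mutant-labelled library 1 and 705 without mutant-labelled library 2. In discs the number, 2932, was 1032 with all 12 fitted together, 961 with a log2 change of at least 1, and 1883 to 2984 when a library was left out, the lowest without control library 2. For the difference between tissues it was 1027, 1548 with DESeq2, and 662 to 1366 when a library was left out, the lowest values being without control disc library 3 (662), mutant-labelled disc library 2 (667) and control disc library 2 (676). Peptide genes called higher in that difference numbered 2 with DESeq2 (DptB and CecA1), 2 with the replicate block (DptB and DptA) and 1 to 2 when a library was left out (DptA joined without mutant-labelled gland library 3).

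The following log2 changes, none past the threshold, turned sign. With libraries left out, AttA ran from -0.34 to 0.71, AttD from -0.44 to 0.045, CecC from -1.13 to 0.16, egg from -0.32 to 0.088, CG43071 from -0.47 to 0.13, Rpn6 from -0.17 to 0.13 and Rel from -0.26 to 0.22 in glands. In discs, AttB ran from -0.58 to 0.29 and egg from -0.056 to 0.0038. In the difference between tissues, AttC ran from -0.92 to 3.32 and CecC from -0.67 to 1.22. Rpn6 in glands was 0.0063 with the 20 most abundant genes removed, 0.0020 with no low-count filter and 0.079 with all 12 fitted together. Rel in glands was 0.0054 with upper-quartile factors, 0.019 with the 20 removed, 0.0096 with no filter, 0.026 with limma-voom, 0.018 with the replicate block and 0.079 with all 12 fitted together. AttB in discs was 0.014 with upper-quartile factors, 4.53e-05 with no filter and 0.0049 with all 12 fitted together. The cause of these shifts was not tested.

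Libraries with the same replicate number deviated together with correlations of 0.0085, 0.363 and 0.382 in glands and 0.120, -0.069 and 0.150 in discs, and 4 of these 6 numbers had their own number as best partner. Whether the numbers pair the libraries was not settled, and the main fits did not pair them. The replicate block gave 1570 genes called in glands, 3007 in discs and 1050 for the difference. With it the gland change of pirk passed (-1.16, adjusted p = 0.0487), as did the DptA difference between tissues (4.03, adjusted p = 0.0183). Of the 60 disc values, 44 were at most 10 counts, which limits any statement on discs.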

Other observations

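Mtk, which encodes metchnikowin, a proline-rich antifungal peptide, was 5.50, 2.67 and 1.98 CPM in control glands and 1.96, 1.30 and 11.4 CPM in mutant-labelled glands. Mutant-labelled library 3, which had the highest DptA, AttA, AttC and Dro of its group, was also the highest for Mtk. The same library had the lowest AttD, CecC and CecA2 of its group. Def, the gene of defensin, was 1.94, 1.03 and 2.44 CPM in control glands and 1.19, 0.432 and 0.766 CPM in mutant-labelled glands, and its groups overlapped (log2 change -1.20 ± 0.47, edgeR adjusted p = 0.144). Both genes were chosen after their values were seen.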
